A study of Mus musculus with 42 samples.

Results

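Gene expression in whole lungs of newborn mice without Nfe2l2, kept in room air, was compared between postnatal day 3 (P3) and postnatal day 2 (P2). Nfe2l2 encodes the transcription factor NRF2. The comparison uses 3 knockout (KO) pups at P3, titled as day 2 of air, and 3 at P2, titled as day 1 of air, which are 6 of the 42 arrays of the study. The study set KO pups (labelled Nrf-/-) beside wild-type (WT, Nrf+/+) pups at P1 to P4 in air, and at P2 to P4 after 1 to 3 days in a chamber with 100 percent oxygen. Pups of every group were housed with foster dams. Each array holds RNA from the lung homogenate of a single mouse, so the replicates are animals. The p-values rest on 1 estimate of the spread per gene, shared by all 14 groups of the 42 arrays. The sources used here state neither strain, litter nor sex, nor which part of Nfe2l2 was deleted. Xist, which is transcribed in females, was high on 2 of 3 P2 arrays and on 1 of 3 P3 arrays.

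NRF2 is normally bound in the cytoplasm by KEAP1 and degraded. When oxidants modify KEAP1, NRF2 enters the nucleus, binds antioxidant response elements together with small MAF proteins, and switches on genes for glutathione synthesis, thioredoxin recycling and detoxification. In the first days after birth the mouse lung is in the saccular stage, in which distal airspaces widen, capillaries spread along their walls, alveolar type 1 and type 2 cells mature and lung liquid has been cleared, before secondary septa divide the saccules into alveoli.

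The targeted gene was checked first. The probe set used for Nfe2l2 read 4.62, 4.69 and 4.45 on the KO P2 arrays and 4.26, 4.45 and 4.34 on the KO P3 arrays (log2 values), near the 10th percentile of these arrays of 4.24 to 4.33. The WT arrays read 10.95 ± 0.19 at P2 and 10.67 ± 0.08 at P3 (mean ± SD, n = 3), so every KO array lay far below every WT mean. A second probe set of the gene behaved differently. It read 6.24, 6.13 and 6.25 on the KO P2 arrays and 8.06, 8.21 and 8.74 on the KO P3 arrays. The groups did not overlap, and the signal rose 4.38-fold (log2 change 2.13, adjusted p = 2.98e-07 over all probe sets). The same probe set read 6.67 ± 0.42 in KO at P1 and 5.42 ± 0.11 in KO at P4, and 8.64 ± 0.60, 5.76 ± 0.30 and 6.15 ± 0.26 in WT at P1, P2 and P3, so a mean as high as that of KO P3 was also seen in WT at P1. The sources do not state which part of the transcript each probe set covers, so the second one checks nothing about the deletion.

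The 6 arrays carried strong lung signal. Sftpc, the surfactant protein of alveolar type 2 cells, read 14.60 to 14.70, Ager of alveolar type 1 cells 14.18 to 14.45, Scgb1a1 of club cells 14.61 to 14.76 and Pecam1 of endothelium 11.30 to 11.88. Array medians lay between 6.34 and 6.39. Across genes, which are not independent replicates, arrays correlated with r of 0.981 to 0.984 within P2, 0.985 to 0.995 within P3 and 0.966 to 0.991 between the ages. The difference between the 3′ and 5′ control probe sets, a sign of RNA integrity, was 0.23 to 0.28 for Actb at P2 and 0.23 to 0.27 at P3, and −0.07 to −0.06 and −0.05 to 0.04 for Gapdh.

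Transcripts of other organs stood out on some of these arrays. A list of thymocyte genes, scored as the mean deviation of its members and set relative to the median of the 42 arrays, lay at 3.73, 0.91 and 2.84 log2 units on P2 arrays 1, 2 and 3, and at 0.15, 0.16 and −0.08 on the P3 arrays. Genes of thymic epithelium and lymphoid stroma followed the same order, at 2.46, 0.46 and 1.94 at P2 and −0.05, −0.14 and 0.02 at P3. All 3 P2 arrays therefore lay above all 3 P3 arrays on both lists. Skeletal muscle genes scored 0.06, −0.24 and 1.89 at P2 and 0.38, 4.58 and 1.59 at P3. Liver genes scored 4.22 on P2 array 3 and −0.27 to 0.01 on the other 5. Heart muscle genes scored −0.04, −0.57 and 1.56 at P2 and 0.18, 0.58 and −0.50 at P3. Results below are therefore given for all arrays, with the 4 scores of liver, heart muscle, skeletal muscle and thymocyte genes as covariates, and without P2 arrays 1 and 3 and P3 array 2. The last setting leaves P2 array 2 alone in its group, where it is assumed to vary like the other groups. All results of that setting rest on this 1 animal at P2. When arrays were weighted by how closely they followed the fit, P2 array 2 had the lowest weight of the 42 (0.26), next to 0.271 for P2 array 1.

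**Figure D1:**
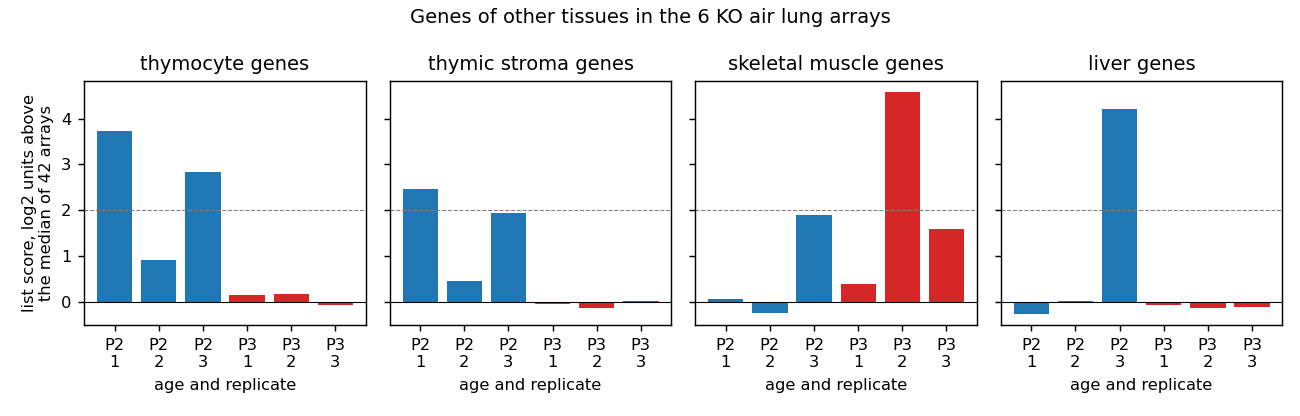
Scores of 4 lists of genes from other tissues on each of the 6 KO air arrays (log2 units above the median of the 42 arrays), blue for P2 and red for P3, with the dashed line at 2 log2 units. P2 arrays 1 and 3 stand at 3.73 and 2.84 for thymocyte genes, P3 array 2 at 4.58 for skeletal muscle genes and P2 array 3 at 4.22 for liver genes.

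Of 18194 genes tested with limma, 3472 (19.1%) changed between P2 and P3 at an adjusted p under 0.05. Of these, 1487 (8.17%) were higher and 1985 (10.9%) lower at P3, and 272 (1.49%) changed at least 2-fold. The median change of all genes was 0.00. The 3 values of the groups did not overlap for 4586 genes (25.2%). At an unadjusted p under 0.05 there were 5431 genes (29.9%). With the 4 scores as covariates, 501 genes passed (2.75%), of which 143 (0.786%) rose and 358 (1.97%) fell. Of the 501, 391 were among the 3472 in the same direction. Without the 3 arrays, 692 were called, 597 of them shared. Leaving out P2 array 1 alone left 2087 calls. Called in all 3 settings in the same direction were 347 genes (1.91%), 77 higher and 270 lower. With the covariates 94 of the 1487 higher and 297 of the 1985 lower genes were called again.

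Genes of the thymus gave the largest falls. Of 18 thymocyte genes measured, 17 were lower and 0 higher at P3, with a median change of −2.23, against 10.9% lower over all genes. With the 4 scores as covariates 0 were called by limma, 3 passed an unadjusted p under 0.05 and the median was 0.03, where one covariate is made from the same genes. Rag1, the recombinase that assembles antigen receptor genes in developing lymphocytes, read 12.64, 8.97 and 12.05 at P2 and 5.81, 6.23 and 5.03 at P3. It fell 46.2-fold (log2 change −5.53, adjusted p = 2.32e-05). Ccr9, the chemokine receptor that holds thymocytes in the thymus, read 11.65, 7.44 and 11.00 at P2 and 5.10, 5.42 and 4.73 at P3, a 30.7-fold fall. The groups did not overlap for either gene, and P2 array 2 lay well below the other P2 arrays. Cd3g, a subunit of the T cell receptor complex, fell by 4.21 log2 units, Bcl11b, a transcription factor of T cell commitment, by 4.16, and Cd8b1, a chain of the CD8 co-receptor, by 3.91.

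The stroma of the thymus moved with its lymphocytes. Prss16, a serine protease of the thymic cortex, read 11.29, 7.34 and 10.59 at P2 and 5.60, 5.43 and 5.64 at P3, an 18.2-fold fall (adjusted p = 1.44e-06). Ccl25, the ligand of Ccr9, fell by 3.73 and Tbata, a gene of thymic epithelium, by 3.88. Of 10 genes in that list 7 were lower and 0 higher (median −1.02). Among 11 markers of peripheral T cells 6 were lower and 1, S1pr1, higher. Cd5 read 10.20, 6.04 and 8.87 at P2 and 5.28, 5.02 and 4.90 at P3. Among 11 NK cell genes 3 were lower, namely Gzma (−2.41), Gzmb (−0.63) and Nkg7 (−0.66), against 10.9% lower over all genes. In such bulk samples fewer cells of a type and less RNA per cell cannot be told apart, nor can RNA of tissue beside the lung be told apart from that of cells within it.

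The skeletal muscle calls moved with P3 array 2. Of 22 measured, 7 were higher and 0 lower (median change 1.70), against 8.17% higher over all genes. Tnnt3, fast skeletal troponin T, read 5.54, 4.89 and 7.55 at P2 and 5.65, 12.77 and 8.67 at P3, so the groups overlapped although the change of 3.04 passed the test (adjusted p = 0.0144). Without P2 arrays 1 and 3 and P3 array 2 the change was 2.27 (adjusted p = 0.122). The liver gene Alb read 6.31, 7.31 and 13.48 at P2 and 6.75, 7.28 and 6.72 at P3, and its change of −2.12 was not called (adjusted p = 0.548). Scgb3a1, a secretoglobin of the airways, read 13.40, 10.20 and 14.23 at P2 and 9.94, 8.94 and 6.75 at P3. It fell 16.7-fold (adjusted p = 0.0165), and the change was −2.91 with the covariates (adjusted p = 0.511).

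Of all 18194 genes Thap2 gave the smallest adjusted p. This gene, which encodes a protein with a THAP-type zinc finger, read 8.67, 8.62 and 8.37 at P2 and 6.62, 6.89 and 6.62 at P3. It fell 3.58-fold (log2 change −1.84 ± 0.11 SE, adjusted p = 7.74e-13). The change was −1.92 with the covariates (adjusted p = 3.72e-07) and −1.99 without the 3 arrays. A second, dimmer probe set of the gene, at 4.92 to 5.58 on the 6 arrays, changed by −0.32 (adjusted p = 0.0512 over all probe sets). The thymocyte scores of P2 arrays 1, 2 and 3, which read 8.67, 8.62 and 8.37 for this gene, were 3.73, 0.91 and 2.84. A link between the 2 was not tested beyond the covariate fits. At P4 the KO lungs were at 8.60 ± 0.02, which is 1.89 above P3. That step uses the same P3 arrays as the step from P2.

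Other falls had the same shape over age. Nabp1, a single-stranded DNA binding protein of the DNA damage response, read 9.49, 8.41 and 8.85 at P2 and 6.39, 6.68 and 6.62 at P3. It fell 5.11-fold (log2 change −2.35 ± 0.19 SE, adjusted p = 3.96e-10), and by 1.66 with the covariates (adjusted p = 0.00137). Kctd21, a BTB-domain protein, read 7.57, 7.91 and 7.2 at P2 and 6.32, 6.02 and 6.08 at P3. It fell 2.68-fold (adjusted p = 8.33e-09). Trmt1l, which resembles a tRNA methyltransferase, fell 2.48-fold from 7.91, 8.04 and 7.72 to 6.40, 6.75 and 6.58, but a further probe set of the gene changed by 0.07. Dleu2, a long non-coding RNA, fell 2.78-fold from 7.32, 7.05 and 6.63 to 5.16, 5.68 and 5.72. Its further probe sets changed by −0.97 and −0.27, the latter not called (adjusted p = 0.15 over all probe sets). By the probe sets used none of these 4 overlapped between the ages. From P3 to P4 they differed by 1.19, 1.13, 1.02 and 1.18 in that order, each called higher at P4. Those steps use the same P3 arrays, whose low values chose these genes, so they are no separate support.

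Some falls were part of a longer decline or stayed down. Inmt, an N-methyltransferase abundant in lung fibroblasts, read 10.93, 11.87 and 11.30 at P2 and 9.41, 10.53 and 9.94 at P3. It fell 2.64-fold (adjusted p = 0.000323), and by 2.23 log2 units with the covariates. KO lungs read 11.75 ± 0.10 at P1 and 8.61 ± 0.37 at P4, and the step from P3 to P4 was a further −1.36. Vnn1, a pantetheinase that makes cysteamine, fell 3.29-fold from 9.87, 10.24 and 9.22 to 7.40, 8.47 and 8.30. Neat1, the non-coding RNA that scaffolds paraspeckles, fell 2.42-fold from 11.49, 11.87 and 11.80 to 10.17, 10.62 and 10.55 by the probe set used, but its second probe set changed by 0.00 (adjusted p = 0.994 over all probe sets). For both the step from P3 to P4 was not called, at 0.29 (adjusted p = 0.594) for Vnn1 and 0.05 (adjusted p = 0.91) for Neat1. Stk36, a kinase needed for motile cilia, fell by 1.23 from 7.45, 8.15 and 7.70 to 6.43, 6.40 and 6.78, but a further probe set of the gene changed by 0.06.

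Gpihbp1 was the 1 gene of 22 on the endothelial list that rose in all 3 settings. This gene, for the capillary protein that carries lipoprotein lipase, read 9.78, 10.29 and 9.79 at P2 and 11.44, 11.31 and 11.37 at P3. It rose 2.68-fold (log2 change 1.42 ± 0.15 SE, adjusted p = 8.5e-08), by 1.24 with the covariates (adjusted p = 0.00472) and by 1.11 without the 3 arrays (adjusted p = 0.00264). P2 array 2, which carried the least thymus signal, was the highest of the P2 arrays but lay below every P3 array. Plat, tissue plasminogen activator, read 8.43, 8.66 and 8.53 at P2 and 10.32, 9.88 and 9.98 at P3, a 2.86-fold rise (adjusted p = 8.61e-08), while a second, dimmer probe set of the gene changed by 0.14 (adjusted p = 0.433 over all probe sets). Ramp3, which makes the calcitonin receptor-like receptor respond to adrenomedullin, rose 2.34-fold from 7.55, 7.81 and 7.32 to 8.87, 8.91 and 8.58.

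Phactr3, a regulator of protein phosphatase 1 and actin, rose 2.53-fold from 5.84, 5.98 and 5.79 to 7.33, 7.09 and 7.21. Mxra7 rose 2.43-fold from 8.34, 8.95 and 8.50 to 9.97, 9.71 and 9.96, and Tox2, a high-mobility-group protein, 2.37-fold from 9.28, 9.70 and 9.39 to 10.51, 10.78 and 10.82. Both were called with the covariates too, at 0.93 and 0.91, by the probe sets used. Of the 3 probe sets of Mxra7 only 1 was called, and of the 2 of Tox2 also only 1. Some further genes that rose in all 3 settings were chosen after their values were seen. They are Lmcd1 (1.17), the endothelial genes Tmem100 (1.04) and Ackr3 (1.0), the endothelial lipase Lipg (1.2), the homeobox gene Hlx (1.02) and the proteoglycan Spock2 (1.03). Kcne2, a potassium channel subunit, rose by 1.44 from 7.68, 8.31 and 7.44 to 9.35, 9.24 and 9.17, and was not called with the covariates (1.32, adjusted p = 0.127). Some of the largest rises of the covariate fit were smaller over all arrays. P2ry14, a receptor for UDP-sugars, rose by 1.0 from 9.42, 9.75 and 8.93 to 10.91, 10.01 and 10.19, and by 1.27 with the covariates (adjusted p = 0.0127), but was not called without the 3 arrays (0.80, adjusted p = 0.18). Iqgap3, a scaffold protein linked to proliferating cells, rose by 0.73, by 1.39 with the covariates (adjusted p = 0.0494), and was not called without the 3 arrays (1.10, adjusted p = 0.0965). Rps4l, whose probes may also read its near-identical relatives, rose by 0.76, and by 1.38 with the covariates. Rpgrip1, a protein of the ciliary transition zone, rose by 0.81 with overlapping groups, P2 array 1 reading 7.76, and a further probe set of it changed by −0.11.

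**Figure D2:**
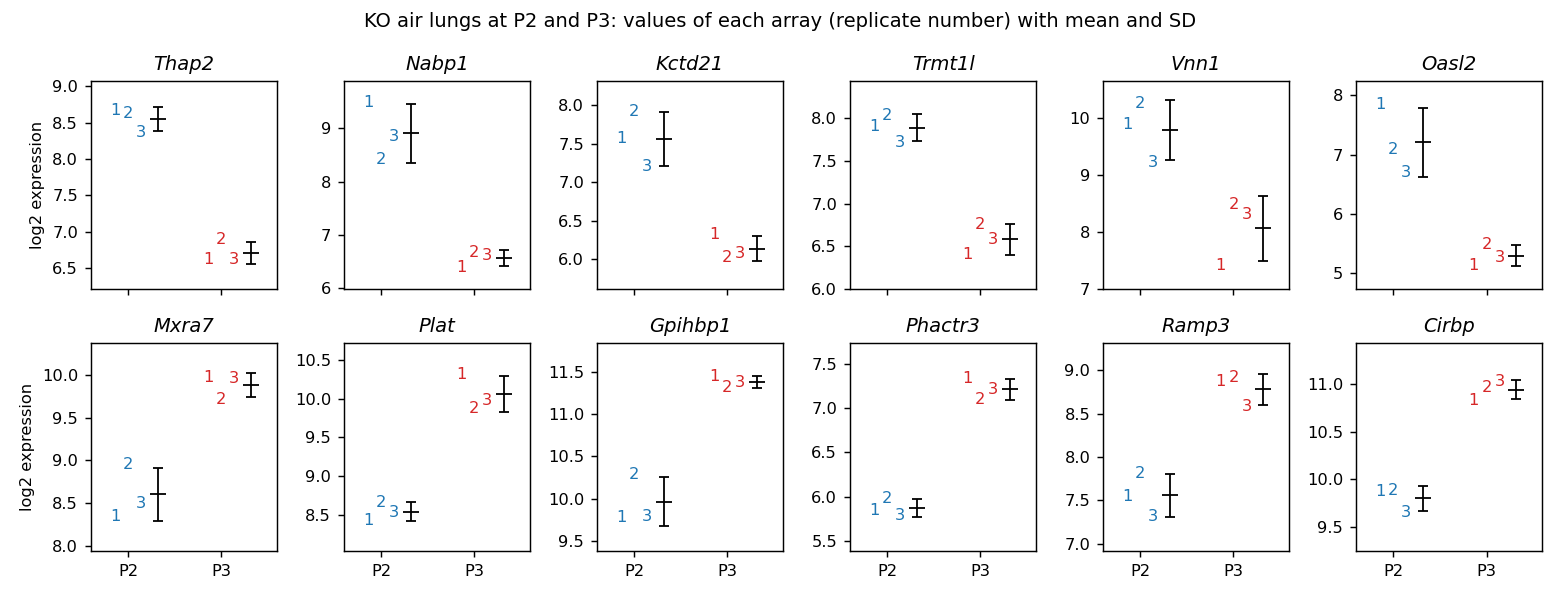
Log2 expression of 12 genes on each KO air array at P2 (blue) and P3 (red), marked by replicate number, with the mean and SD (n = 3). The upper 6 genes were lower at P3 and the lower 6 higher, and in none do the arrays of the 2 ages overlap; Thap2 reads 8.37 to 8.67 at P2 and 6.62 to 6.89 at P3.

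The largest rise by the probe set used belonged to Rprd2, which encodes a protein that binds the tail of RNA polymerase II, but its probe sets disagreed. The reported one read 7.85, 7.99 and 7.31 at P2 and 9.51, 9.47 and 9.72 at P3, a 3.60-fold rise. Of its 8 probe sets 3 were called lower, with changes of −0.46, −0.67 and −0.46, and 1 more was called higher (0.32). No direction can be given for the gene as a whole. The same holds for Srsf6, a splicing factor, whose reported probe set fell by 0.59 while its other 3 probe sets rose by 0.54, 0.56 and 0.37.

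Interferon-stimulated genes were lower at P3. Type I interferon acts through a complex that includes STAT2 and IRF9, which binds interferon-stimulated response elements and switches on antiviral genes. Of 24 such genes measured, 14 were lower and 0 higher (median change −0.48), against 10.9% lower and a median of 0.00 over all genes. The promoters of 3 of them are printed to show the element in capitals (GAAA, any 2 bases and GAAA, on either strand), each as 100 bases from the 250 before the gene's start (RefSeq, GRCm38.p6).
Stat2, chr10:128270248-128270347, plus strand: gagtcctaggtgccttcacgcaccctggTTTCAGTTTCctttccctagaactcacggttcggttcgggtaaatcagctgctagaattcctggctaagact
Cxcl10, chr5:92349040-92349139, minus strand: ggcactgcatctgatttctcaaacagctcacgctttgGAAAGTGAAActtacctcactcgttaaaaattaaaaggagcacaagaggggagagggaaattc
Ifit1, chr19:34640754-34640853, plus strand: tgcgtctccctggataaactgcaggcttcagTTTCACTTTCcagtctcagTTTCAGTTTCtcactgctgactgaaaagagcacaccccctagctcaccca
Of the 14 genes called lower, 11 had a promoter in the table and 7 of these held the element. Oasl2 and Usp18, described below, were not among the 7. Over the whole list 9 of 18 genes (50.0%) held it, against 3.46% of 27025 genes and 2.98% of all 32851 promoters. A match is a description of the letters in this window.

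The interferon genes differed in which arrays carried them. Oasl2, an antiviral gene of the oligoadenylate synthetase family, read 7.84, 7.08 and 6.70 at P2 and 5.14, 5.48 and 5.27 at P3. It fell 3.76-fold (adjusted p = 1.84e-06), and by 1.62 with the covariates (adjusted p = 0.0193). Usp18, which removes the ubiquitin-like protein ISG15 and damps interferon signalling, fell 2.92-fold from 8.04, 7.68 and 7.21 to 6.23, 5.86 and 6.2, and by 1.33 with the covariates (adjusted p = 0.0467). For both genes P2 array 1 was the highest and P2 array 3 the lowest of the P2 arrays. The thymocyte scores of P2 arrays 1, 2 and 3 were 3.73, 0.91 and 2.84. The part of the thymus signal in these falls was not tested beyond the covariate fits. Stat2 read 7.61, 7.33 and 7.26 at P2 and 6.93, 6.63 and 6.70 at P3, a fall of 0.65, and −0.36 with the covariates (adjusted p = 0.322). Cxcl10, a chemokine for activated T cells, and Ifit1, which binds foreign RNA, were chosen after their values were seen. Cxcl10 read 8.36, 5.82 and 7.38 at P2 and 5.63, 5.40 and 5.50 at P3, and its change was 0.23 with the covariates (adjusted p = 0.842). Ifit1 read 8.40, 7.47 and 6.68 at P2 and 6.0, 6.18 and 6.48 at P3. In all, 2 of the 14 calls (Oasl2 and Usp18) held with the covariates, and both also held without the 3 arrays.

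Genes of antigen presentation fell as well, together with the thymus genes. Over all genes 10.9% were lower and 8.17% higher. Of 13 genes of MHC class I presentation 7 were lower and 0 higher (median −0.49), and with the covariates 0 were called and 0 passed an unadjusted p under 0.05. Psmb9 and Psmb10, subunits of the immunoproteasome, fell by 1.33 and 0.80. Psmb9 read 9.78, 8.01 and 8.69 at P2 and 7.60, 7.54 and 7.36 at P3. H2-Q2, whose probes may also read its near-identical relatives, fell by 2.47. Of 8 MHC class II genes 5 were lower (median −0.53), and with the covariates the median was 0.52, with 1 called higher and 0 lower. H2-Ab1, a chain of the class II molecule, read 10.39, 8.30 and 9.99 at P2 and 8.87, 8.35 and 8.19 at P3, and on P2 array 2 alone it was no higher than at P3. Its change of −1.09 became 0.63 with the covariates (adjusted p = 0.284). Of 18 macrophage genes 5 were lower, among them C1qa (−0.76), C1qb (−0.72) and the mannose receptor Mrc1 (−0.44), and with the covariates 0 were called and 3 passed an unadjusted p under 0.05, all lower.

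Chaperone genes were lower at P3, with small changes. Heat shock factor HSF1 drives such genes when proteins unfold, and part of the list belongs to the endoplasmic reticulum. Of 22 measured, 8 were lower and 0 higher (median change −0.20), against 10.9% lower over all genes. The promoters of 2 are printed because their genes fell and hold the heat shock unit, here any GAANNTTC or TTCNNGAA on either strand, in capitals (RefSeq, GRCm38.p6, 100 bases).
Hsph1, chr5:149636337-149636436, minus strand: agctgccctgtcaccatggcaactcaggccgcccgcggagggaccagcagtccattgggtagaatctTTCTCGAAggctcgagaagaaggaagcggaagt
Hspd1, chr1:55088017-55088116, minus strand: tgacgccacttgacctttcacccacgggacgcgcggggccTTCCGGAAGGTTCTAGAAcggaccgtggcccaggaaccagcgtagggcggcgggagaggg
The stretch in Hspd1 holds 3 overlapping matches. Over the list 7 of 19 genes (36.8%) held the unit, against 14.5% of all genes and 12.8% of all promoters. Of the 8 genes called lower 7 had a promoter in the table and 3 of these a match (Hsph1, Hspd1 and Hspe1).

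Hsph1, a large chaperone that exchanges nucleotide on HSP70 proteins, read 9.12, 8.55 and 8.68 at P2 and 7.66, 7.84 and 7.41 at P3. It fell 2.22-fold (adjusted p = 1.87e-06), and by 1.13 with the covariates (adjusted p = 0.0119). Hspa8, the constitutive HSP70, read 13.61, 13.54 and 13.54 at P2 and 13.16, 13.32 and 13.24 at P3, a fall of 0.32. Calr, a lectin chaperone of the endoplasmic reticulum, fell by 0.34 from 12.98, 13.06 and 13.00 to 12.68, 12.71 and 12.63. All 3 held with the covariates and without the 3 arrays. Hspd1, the mitochondrial chaperonin, was chosen after its values were seen. It read 11.99, 11.27 and 11.76 at P2 and 11.06, 11.34 and 10.92 at P3, so its groups overlapped, and its fall of 0.56 became −0.33 with the covariates (adjusted p = 0.409). Chordc1, a partner of HSP90 chosen in the same way, fell by 1.24 from 10.28, 9.72 and 9.99 to 8.82, 8.78 and 8.66, and by 0.95 with the covariates.

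Cirbp, an RNA-binding protein known for its induction by mild cold, moved the other way. It read 9.87, 9.88 and 9.65 at P2 and 10.83, 10.96 and 11.03 at P3. The rise was 2.20-fold (log2 change 1.14 ± 0.09 SE, adjusted p = 5.25e-10), at 1.08 with the covariates (adjusted p = 0.000833). KO lungs read 10.25 ± 0.16 at P1 and 9.61 ± 0.19 at P4, so P3 was the highest of the 4 ages. Temperature of the pups at sampling is not stated in the sources.

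Splicing factors were lower in part. Over all genes 10.9% were lower and 8.17% higher, and 1.97% and 0.786% with the covariates. Of 24 splicing and nuclear RNA genes 11 were lower and 0 higher by the probe sets used (median −0.23), Srsf6 among them with the disagreement given above. With the covariates 3 were called higher and 4 lower. Tra2a, which binds exonic splicing enhancers, read 10.54, 10.55 and 10.37 at P2 and 9.57, 9.54 and 9.64 at P3. By the probe set used this was a 1.87-fold fall (adjusted p = 7.1e-06, and −0.85 with the covariates). Of the 6 probe sets of Tra2a 1 was called lower and 5 were not called. Luc7l3, a U1-associated protein, fell by 0.81 from 11.09, 10.78 and 10.90 to 10.04, 10.13 and 10.18, and a further probe set of it changed by 0.18. Clk1, a kinase of SR proteins chosen after its values were seen, fell by 0.81 from 11.47, 11.42 and 11.67 to 10.66, 10.72 and 10.75. Other RNA regulators chosen in that way and called with the covariates were Mettl3, the catalytic subunit of the m6A methyltransferase (−0.90), Rbm5 (−0.82) and the O-GlcNAc transferase Ogt (−0.92). Among 336 genes whose symbol is Zfp with a number, a set also formed after the values were seen, 60 were lower and 23 higher (median −0.08), and 18 and 2 with the covariates.

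Ribosome assembly and the ATF4 programme gave fewer stable calls. Of 22 ribosome assembly genes 8 were lower and 0 higher (median −0.25), and with the covariates 0 were called and 1 passed an unadjusted p under 0.05. Dkc1, the pseudouridine synthase of nucleolar RNPs, read 9.96, 9.15 and 9.20 at P2 and 8.63, 8.76 and 8.65 at P3. Its fall of 0.76 was −0.37 with the covariates (adjusted p = 0.371) and −0.51 without the 3 arrays (adjusted p = 0.0192). Of 20 genes of the amino acid stress response 3 were higher and 3 lower, against 8.17% higher and 10.9% lower over all genes. Atf4, its transcription factor, rose 1.38-fold from 11.07, 11.00 and 11.07 to 11.54, 11.47 and 11.53 (adjusted p = 2.38e-05; 0.50 with the covariates). Cebpg, a bZIP partner of ATF4 chosen after its values were seen, fell 2.02-fold from 9.65, 9.78 and 9.49 to 8.58, 8.74 and 8.58 (−1.06 with the covariates). For both genes every P3 array lay apart from every P2 array.

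No mitosis gene was called between P2 and P3 in KO lungs. Of 25 measured, 0 were called by limma and 0 passed an unadjusted p under 0.05 in either direction (median change −0.28), while these shares over all genes were 19.1% and 29.9%. Mki67, the proliferation marker, read 10.73, 9.23 and 10.18 at P2 and 10.09, 9.61 and 9.56 at P3 (change −0.29, adjusted p = 0.559). The list score was 0.76, −0.94 and −0.24 at P2 and 0.17, −0.65 and −0.57 at P3, with P2 array 1, the highest in thymocyte genes, also the highest here. With the covariates the median change was 1.09, and 0 genes were called but 22 of 25 were higher at an unadjusted p under 0.05. Of 26 DNA replication genes 6 were lower (median −0.49). With the covariates the median was 0.62, with 2 called higher and 0 lower and 18 of 26 higher at an unadjusted p under 0.05. The 6 include Mcm7 (−0.83), a subunit of the replicative helicase, Pcna (−0.55), the DNA sliding clamp, and Uhrf1 (−1.13), which maintains DNA methylation. All 3 overlapped between the ages and changed sign with the covariates, to 0.33, 0.38 and 0.77. The thymocyte scores moved with these genes, and their part was not tested beyond the covariate fits.

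The flanking steps of the KO series were not tested against the step from P2 to P3. From P1 to P2, 25 of 25 mitosis genes were higher (median 1.83; 6.86% of all genes were called higher), and from P3 to P4 again 25 of 25 (median 1.33; 8.12% of all genes). These steps share the P2 and P3 arrays with the comparison described here, and with them the thymus signal at P2. Over all genes 2427 were called from P1 to P2, and 2 with the covariates. From P3 to P4 these counts were 2883 and 1458. DNA replication genes were higher for 22 of 26 and 26 of 26 in those steps. Cdkn1a, the p21 inhibitor of cyclin-dependent kinases, rose 1.97-fold from P2 to P3, from 9.82, 10.29 and 9.88 to 10.42, 11.44 and 11.06 (adjusted p = 6.14e-05). With the covariates its change was 0.43 (adjusted p = 0.418). At P4 it was 1.24 lower than at P3. In WT lungs the step from P2 to P3 gave a median of 0.81 over the 25 mitosis genes, with 2 called higher. Over the 26 replication genes the median was 0.61 with 5 called higher, against 2.2% of all genes in that WT step.

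**Figure D3:**
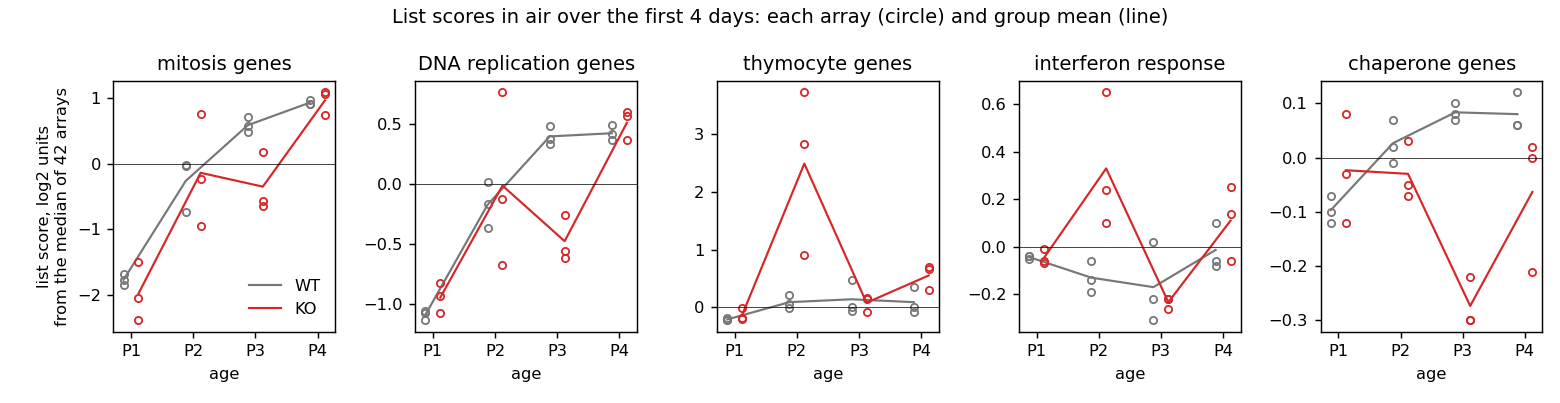
Scores of 5 gene lists (log2 units from the median of the 42 arrays) at P1 to P4 in air, each circle an array and each line the group mean, red for KO and grey for WT. Mitosis genes in KO lungs stand at −0.94 to 0.76 at P2 and −0.65 to 0.17 at P3, the thymocyte score peaks at P2 with 0.91 to 3.73, and chaperone genes are lowest in KO at P3, at −0.30 to −0.22.

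Genes of endothelium and its growth factors were higher at P3. Of 22 endothelial genes 9 were higher and 0 lower (median change 0.29), of 15 genes of VEGF and angiopoietin signalling 5 and 0 (median 0.23), and of 15 Notch genes 4 and 0 (median 0.31), against 8.17% higher over all genes. Cldn5, the tight junction protein of endothelium, rose 1.62-fold from 12.44, 12.74 and 12.26 to 13.17, 13.20 and 13.15 (adjusted p = 0.00017). It was called with the covariates (0.60, adjusted p = 0.0465) but not without the 3 arrays (0.42, adjusted p = 0.211). Egfl7, an endothelial matrix protein, rose by 0.64 and Apln, the apelin of sprouting tip cells, by 0.71. Pgf, a VEGF family ligand for FLT1, rose by 0.56 from 7.42, 7.46 and 7.2 to 8.13, 7.65 and 7.99, and by 0.68 with the covariates. Vegfa itself read 11.07, 11.67 and 11.18 at P2 and 11.40, 11.39 and 11.65 at P3 and was not called (adjusted p = 0.489). Among the Notch genes Heyl, a target gene in mural cells, rose by 0.75 and the receptor Notch4 by 0.60. With the covariates 2, 1 and 0 of the 3 lists were called higher, and 1 of the VEGF list lower. For Cldn5, Egfl7, Apln, Heyl and Notch4 P2 array 2 was the highest of the P2 arrays.

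TGF-beta and BMP signals pattern vessels, airways and matrix in the growing lung. Of 24 of their genes measured, 11 were higher and 0 lower (median 0.29), against 8.17% higher over all genes. With the covariates 3 held, Tgfbi, Tgfb2 and Nog, the last 2 chosen after their values were seen. Tgfbi, a matrix protein induced by TGF-beta, read 12.30, 12.75 and 12.30 at P2 and 13.42, 13.14 and 13.37 at P3, a 1.82-fold rise (adjusted p = 9.25e-06; 0.75 with the covariates). The ligand Bmp2 rose 1.90-fold from 7.66, 8.31 and 7.68 to 8.70, 8.97 and 8.78, and Smad6, an inhibitory SMAD induced by BMP, 1.93-fold from 9.50, 10.26 and 9.87 to 10.64, 10.88 and 10.96. With the covariates these were 0.32 (adjusted p = 0.531) and 0.45 (adjusted p = 0.377). Bmp2 was 0.90 lower at P4 than at P3, while the step of Tgfbi was −0.16 (adjusted p = 0.432). Both steps use the same P3 arrays.

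Of 23 hedgehog and FGF genes 7 were higher and 0 lower (median 0.25), against 8.17% higher and 10.9% lower over all genes. Etv4, a transcription factor downstream of FGF receptors, rose by 0.66, the FGF inhibitor Spry1 by 0.66 and Gli3, a transcription factor of the hedgehog pathway, by 0.49, from 8.30, 8.44 and 8.38 to 8.93, 8.75 and 8.90. Of 24 Wnt genes 7 were higher and 1, Lef1, lower. Lef1 is also on the thymocyte list. Wnt5a, a non-canonical ligand, read 8.43, 9.09 and 8.24 at P2 and 9.82, 9.30 and 9.50 at P3, a rise of 0.95 (adjusted p = 0.00199). With the covariates 0 genes of either list were called, and at an unadjusted p under 0.05 they were 4 higher of the first and 2 higher and 2 lower of the second.

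Contractile and matrix genes were higher in part, and few of these calls held with the covariates. Of 17 genes of smooth muscle and myofibroblasts 5 were higher and 0 lower (median 0.38), and of 10 pericyte genes 3 and 0 (median 0.27), against 8.17% higher over all genes. With the covariates 1 smooth muscle gene and 0 pericyte genes were called, 4 and 0 being higher at an unadjusted p under 0.05. Pdgfrb, the receptor that marks pericytes and fibroblasts, read 11.42, 11.97 and 11.64 at P2 and 12.22, 12.12 and 12.25 at P3, a rise of 0.52 and 0.22 with the covariates (adjusted p = 0.405). Acta2, smooth muscle actin, was chosen after its values were seen. It rose by 0.64 from 12.85, 12.95 and 13.22 to 13.74, 13.58 and 13.61, and was 0.61 with the covariates (adjusted p = 0.14). Of 20 collagen genes 3 were higher, namely Col4a1 (0.31) and Col4a2 (0.36) of basement membrane and Col12a1 (0.58), and 1 lower. Of 14 matrix proteases and inhibitors 4 were higher, with Timp3, a tissue inhibitor held in the matrix, at 0.66. With the covariates limma called 0 of both lists higher, with 0 collagen genes and 1 protease or inhibitor gene higher at an unadjusted p under 0.05, and it called 1 collagen gene lower. Eln, elastin, read 13.47, 13.73 and 13.86 at P2 and 13.84, 13.69 and 13.79 at P3 and was not called (adjusted p = 0.731).

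Genes that move salt and water across the epithelium were higher at P3. Of 12 measured 7 were higher and 0 lower (median 0.39), against 8.17% higher and 10.9% lower over all genes. Sgk1, a kinase that keeps the epithelial sodium channel at the membrane, read 11.18, 11.88 and 11.36 at P2 and 12.39, 12.46 and 12.54 at P3, a 1.98-fold rise (adjusted p = 4.42e-05). Aqp1, the water channel of capillaries, rose by 0.66 from 12.93, 13.29 and 12.84 to 13.61, 13.71 and 13.73. Aqp5, the water channel of type 1 cells, rose by 0.76 from 10.74, 11.02 and 10.45 to 11.37, 11.47 and 11.65. None of the 3 overlapped, and with the covariates they were 0.66 (adjusted p = 0.116), 0.49 (adjusted p = 0.0579) and 0.67 (adjusted p = 0.0628). The covariate fit called 0 of the 12, with 3 higher and 2 lower at an unadjusted p under 0.05. At P4 Aqp5 and Aqp1 were lower than at P3, by 0.66 and 0.47, a step that uses the same P3 arrays. Other epithelial markers changed less, with 2 of 15 type 1 genes higher and 1 lower, 1 of 16 type 2 genes lower, and Sftpc at 0.04 (adjusted p = 0.609).

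**Figure D4:**
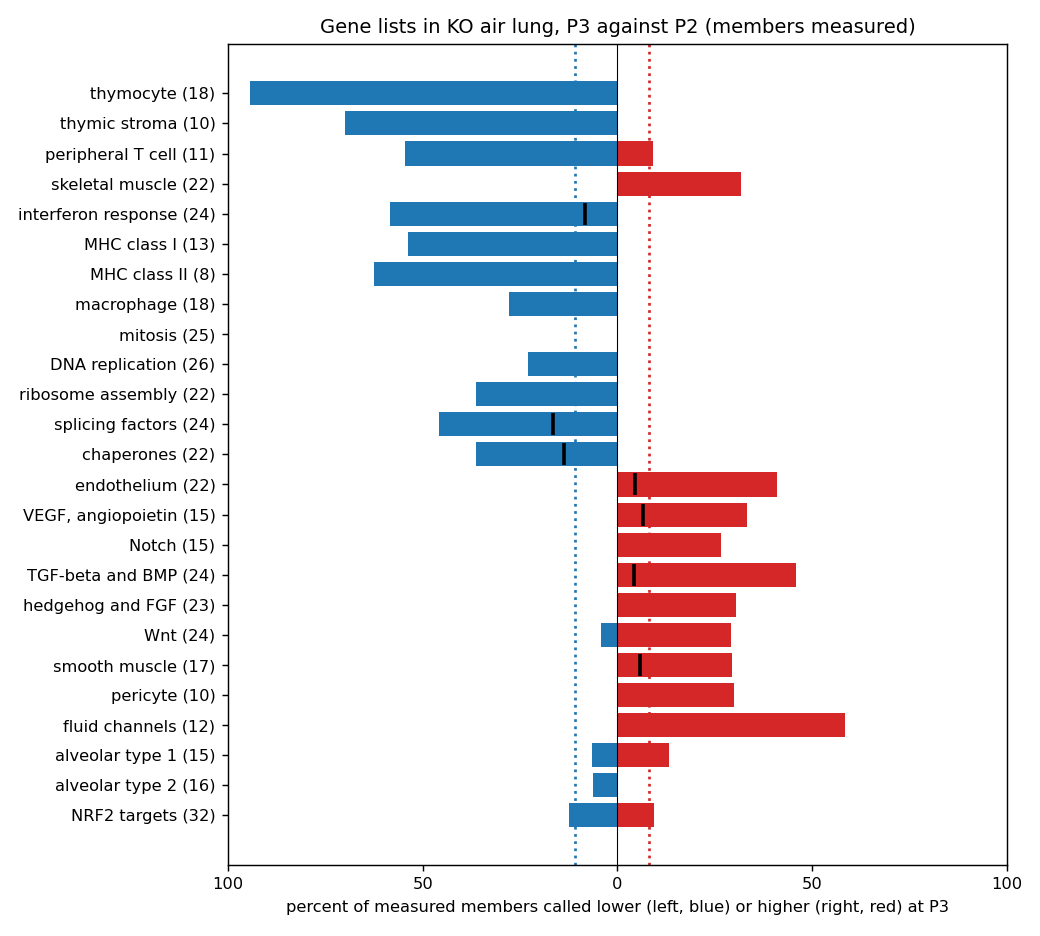
Percent of the measured members of 25 gene lists called lower (blue, left) or higher (red, right) at P3, with the number measured in brackets, dotted lines at the shares over all genes (10.9% and 8.17%) and black ticks at the share called in all 3 settings. Thymocyte genes have 17 of 18 members lower, fluid channel genes 7 of 12 higher and mitosis genes 0 of 25 in either direction, and few lists keep a tick.

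Genes known to be regulated by NRF2 changed about as often as all genes in these lungs that lack it. Of 32 measured 3 were higher and 4 lower (median −0.06), against 8.17% and 10.9% of all genes, and 1 was called higher and 0 lower with the covariates. Nqo1, the quinone reductase, read 7.56, 6.58 and 7.18 at P2 and 6.46, 6.39 and 6.17 at P3, a fall of 0.77 (adjusted p = 0.000977), with P2 array 2 nearest to P3 and a change of −0.37 with the covariates (adjusted p = 0.563). Taldo1, a transaldolase of the pentose phosphate pathway, fell by 0.35 from 11.32, 11.02 and 11.17 to 10.79, 10.88 and 10.81. Txn1, thioredoxin, fell by 0.20, and a further probe set of it changed by 0.14. Gclc and Gclm, which make glutathione precursors, and Hmox1, heme oxygenase, were not called, with changes of −0.14, −0.26 and 0.11 (adjusted p = 0.575, 0.148 and 0.648). Hmox1 read 7.73 to 8.01 over the 6 arrays. The core TGACNNNGC of the antioxidant response element, on either strand, was found before the start of 6 of 27 genes of the list (22.2%), against 11.5% of all genes.

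Hormone, clock and immediate early genes gave calls in both directions, and limma called 0 of them with the covariates. At an unadjusted p under 0.05 that fit gave 2 higher and 3 lower of the glucocorticoid list, 1 and 4 of the clock list and 2 and 4 of the immediate early list. Over all arrays 8.17% of all genes were higher and 10.9% lower. Of 20 glucocorticoid-responsive genes 5 were higher and 2 lower, with Sgk1 and Cdkn1a above, and Lcn2, a siderophore-binding protein, at 1.09, from 9.62, 9.87 and 9.45 to 10.77, 10.61 and 10.82. Of 18 clock genes 4 were higher and 2 lower. Cry1, a repressor of the clock, rose by 0.49 from 9.33, 9.22 and 9.24 to 9.74, 9.59 and 9.93. Per1, another repressor, read 9.09, 10.04 and 9.64 at P2 and 9.95, 10.74 and 10.67 at P3, so its groups overlapped, and its rise of 0.86 (adjusted p = 0.0295) was 0.09 with the covariates. The sources do not state the hour of sampling. Of 23 immediate early genes 2 were higher and 4 lower. Egr2 fell by 1.5 from 7.26, 6.55 and 6.97 to 5.76, 5.09 and 5.44, Egr1 by 1.4 and Myc by 1.45. Myc read 9.47, 7.63 and 8.62 at P2, in the order of the thymocyte score, and 7.09, 7.29 and 6.99 at P3. With the covariates Egr2 was at −0.89 (adjusted p = 0.219), Egr1 at −0.97 (adjusted p = 0.182) and Myc at −0.44 (adjusted p = 0.639). Of 20 respiratory chain genes limma called 0 and 0 passed an unadjusted p under 0.05. Of 15 fatty acid oxidation genes it called 0 and 1 passed.

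The step from P2 to P3 was also compared between genotypes. In WT air lungs it gave 559 calls (3.07%), 400 higher (2.2%) and 159 lower (0.874%). The difference between genotypes itself was called for 1301 genes (7.15%), 280 with the KO change above the WT change (1.54%) and 1021 below (5.61%). With the covariates 32 genes were called (0.176%), 4 above (0.022%) and 28 below (0.154%). Some WT arrays carried liver transcripts, with scores of −0.23, 7.56 and 3.31 at P2 and 0.41, 5.45 and 2.75 at P3, while WT thymocyte scores lay between −0.06 and 0.47. WT P2 array 1 also stood apart, with scores of 2.54 for heart muscle, 2.27 for squamous epithelium and oesophagus, 1.72 for fat and 1.57 for skeletal muscle, beside squamous scores of −0.17 to 0.07 in WT at P3. Leaving out KO P2 array 1 gave 512 calls and leaving out KO P2 array 2 gave 2351.

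Thap2 changed by −1.84 in KO and −0.05 in WT (adjusted p = 0.883), and the difference of −1.79 passed the test (adjusted p = 1.96e-08). WT lungs read 8.61 ± 0.20 at P2 and 8.56 ± 0.08 at P3 (mean ± SD, n = 3), beside 8.37 to 8.67 and 6.62 to 6.89 on the KO arrays. Every KO P3 array lay below every WT mean, while at P2 the WT mean lay within the KO range. Cirbp changed by 1.14 in KO and −0.03 in WT (difference 1.17, adjusted p = 3.18e-06), from a WT level of 9.89 ± 0.13 at P2. For Plat, which changed by 1.52 and 0.45, the difference was 1.06 (adjusted p = 0.00414), and WT already stood at 9.38 ± 0.25 at P2, above the 3 KO arrays. For Gpihbp1 the changes were 1.42 and 0.34 and the difference 1.08 (adjusted p = 0.00204). Oasl2 changed by −1.91 and 0.09 (difference −2.0, adjusted p = 0.000597) and Hsph1 by −1.15 and 0.13 (difference −1.28, adjusted p = 0.000353). Inmt fell in both, by 1.4 and 1.2, and the difference of −0.20 was not called (adjusted p = 0.841).

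With the covariates the genotype difference was still called for Thap2 (−1.83, adjusted p = 5.44e-05), Cirbp (1.14, adjusted p = 0.00889), Kctd21 (−1.45, adjusted p = 0.00887) and Trmt1l (−1.38, adjusted p = 0.00887). It was not called for Plat (0.99, adjusted p = 0.192), Gpihbp1 (0.97, adjusted p = 0.178), Phactr3 (1.12, adjusted p = 0.0592), Nabp1 (−1.05, adjusted p = 0.232) or Oasl2 (−1.77, adjusted p = 0.106). Without the 3 arrays it was −1.94 for Thap2 (adjusted p = 9.26e-07), 1.08 for Cirbp (adjusted p = 0.00085) and −1.96 for Oasl2 (adjusted p = 0.00927). In that setting Plat, at 1.03 (adjusted p = 0.0817), and Gpihbp1, at 0.77 (adjusted p = 0.153), were not called.

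Over lists, the genotype difference was called for 16 of 26 DNA replication genes, all with the KO change below (median −1.0; 5.61% of all genes). It was called by limma for 0 of 25 mitosis genes, of which 19 were lower at an unadjusted p under 0.05 (median −1.07). It was called below for 8 of 22 chaperone genes, 16 of 18 thymocyte genes and 3 of 24 interferon genes, and above for 2 of 12 fluid channel genes (1.54% of all genes). These list counts come from the fit without covariates. With the covariates the difference was called for 32 genes in all, 4 above and 28 below, and it was not counted by list. The median KO change of the replication list went from −0.49 to 0.62 with the covariates. The largest differences above, beside Rprd2, were Slc38a4 (1.6), an amino acid transporter, Mpzl2 (1.53), an adhesion protein of epithelia, Sbsn (1.52), a protein of stratified epithelium, Cers3 (1.41), a ceramide synthase of skin, and Ndrg2 (1.38). With the covariates none of these 5 was called, at 1.21 for Slc38a4 (adjusted p = 0.251), 1.13 for Mpzl2 (adjusted p = 0.357), 0.96 for Sbsn (adjusted p = 0.651), 1.12 for Cers3 (adjusted p = 0.308) and 0.18 for Ndrg2 (adjusted p = 0.941). Sbsn and Ndrg2 were not called within KO lungs, at 0.67 (adjusted p = 0.0992) and 0.38 (adjusted p = 0.453). Without WT P2 array 1, the array with the high squamous score, the difference was 0.93 for Sbsn (adjusted p = 0.0534) and 1.16 for Ndrg2 (adjusted p = 0.122), while Slc38a4, Mpzl2 and Cers3 were still called. The largest below were Rag1 (−5.15), Ccr9 (−5.09), the T cell receptor segment Trbv1 (−4.61), Prss16 (−4.40), Cd3g (−4.34) and Ccl25 (−4.18), all thymus genes.

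**Figure D5:**
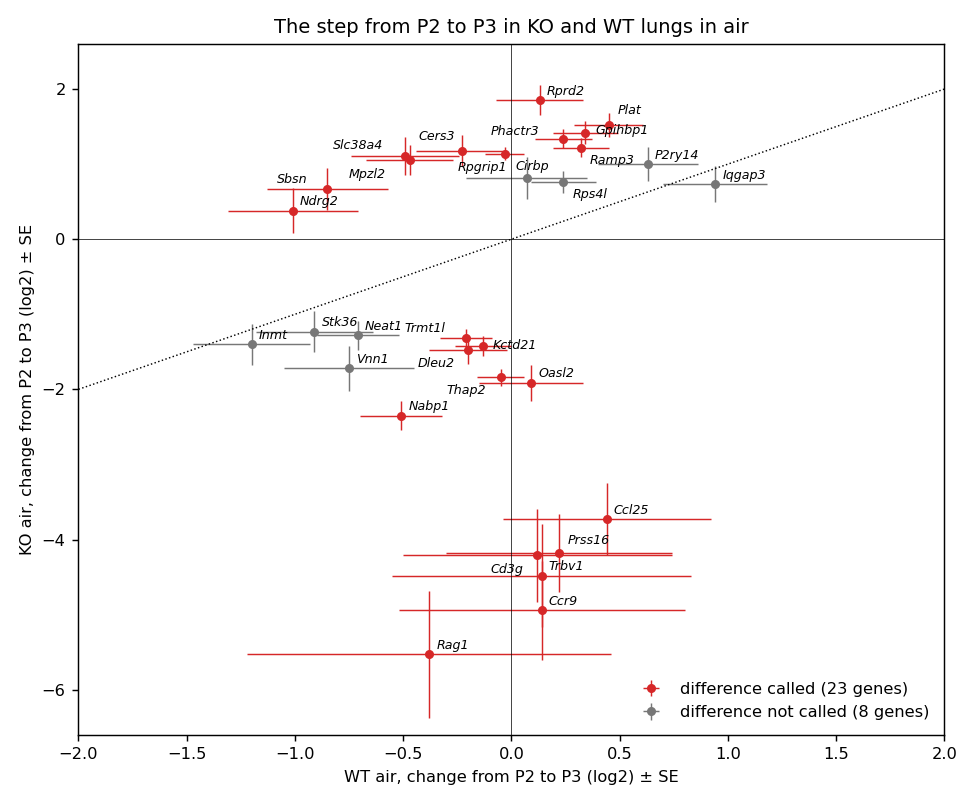
Change from P2 to P3 in KO air lungs against the same change in WT air lungs (log2, bars ± SE) for 31 genes named by rule, red where the difference between genotypes was called (23 genes) and grey where it was not (8 genes). The dotted line marks equal change; Thap2 lies at −1.84 in KO and −0.05 in WT, and thymus genes lie lowest, with Rag1 at −5.53 in KO.

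The same step in KO pups kept in oxygen gave another contrast, which uses the KO air arrays described here as its reference. The difference between oxygen and air was called for 1601 genes (8.8%), 926 with the oxygen change above (5.09%) and 675 below (3.71%), and for 40 (0.22%) with the covariates. Thap2 read 8.68 ± 0.14 at P2 and 8.25 ± 0.12 at P3 in KO lungs in oxygen (mean ± SD, n = 3), and the change differed from that in air by 1.41 (adjusted p = 3.11e-06). Cirbp read 9.90 ± 0.06 at P3 in oxygen, and its change differed by −1.24 (adjusted p = 1.93e-06). Oasl2 read 6.48 ± 0.16 and 6.61 ± 0.23, a difference of 2.03 (adjusted p = 0.0006). Plat read 9.59 ± 0.17 and 10.11 ± 0.07 (difference −0.99, adjusted p = 0.00533). The 3 KO air arrays at P3 lay below for Thap2, and above for Cirbp, the means of KO lungs in oxygen at P3 and of KO air lungs at P2 and P4.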

How the data were processed

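Lung RNA of 42 mice was hybridised to Affymetrix mouse arrays, 3 per group. The deposited values are log2 expression per probe set made by the authors with GCOS and RMA, per the submitters' processing notes, with no versions listed here. RMA summarises probes and sets all arrays to 1 distribution, so a change is relative to the other genes. Arrays give no read depth, and their number (3 per group) limits the precision.

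Of 45101 probe sets 34958 have 1 gene symbol in the platform annotation, 932 several and 9211 none. The probe set of highest mean over the 42 arrays stood for each of 18194 genes, 9012 of which have several. limma 3.58.1 (R 4.3.3, with the data.table package, 1.17.8) fitted 14 group means over all 42 arrays (28 residual degrees of freedom) with lmFit and eBayes, and adjusted p-values (Benjamini-Hochberg, all genes together) under 0.05 were called. Two-sided tests of 2 differences of changes, between genotypes and between oxygen and air in KO, came from the same fit. Scores of 63 gene lists (1041 of 1148 entries measured) are mean log2 deviations. The pipeline was tested on simulated data.

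Genes were named by a rule: the 12 largest rises and falls among called genes whose groups do not overlap, the 10 largest each way by the covariate fit among genes called in both fits, the 6 largest genotype differences each way, the 3 smallest p-values of each list with 3 or more calls in a direction, and 12 genes set by name. Clone names, sex genes and, for the first part, genes of the other-tissue lists were left out. Members and lists were chosen with earlier results of these data known. Promoters come from RefSeq, and the heat shock and interferon elements were added after values were seen. Alternatives were cyclic loess, array weights, robust variances, a filter on dim genes, other probe set rules, other sets of arrays, covariates, each array left out and the replicate number as a block.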

Additional observations from a re-analysis of the deposited data

Results flagged for a closer look

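The change from P2 to P3 differed between genotypes, by a test of the difference itself in limma, for 1301 genes, and between oxygen and air in KO lungs for 1601 genes. In each case the KO air arrays with thymus and skeletal muscle signal enter the difference, and 32 and 40 genes were called with the 4 other-tissue scores as covariates. The named genes are given as the KO change minus the WT change in log2 units. Above 0 were Rprd2 at 1.72, whose probe sets disagree, Slc38a4 at 1.6, Mpzl2 at 1.53, Sbsn at 1.52, Cers3 at 1.41, Ndrg2 at 1.38, Cirbp at 1.17, Phactr3 at 1.10, Gpihbp1 at 1.08, Plat at 1.06 and Ramp3 at 0.90. Below 0 were Thap2 at −1.79, Nabp1 at −1.84, Dleu2 at −1.28, Oasl2 at −2.0, Kctd21 at −1.29 and Trmt1l at −1.10. The thymus genes were Rag1 at −5.15, Ccr9 at −5.09, Trbv1 at −4.61, Prss16 at −4.40, Cd3g at −4.34 and Ccl25 at −4.18. With the covariates Slc38a4, Mpzl2, Sbsn, Cers3 and Ndrg2 were not called. No rule for single outlying samples was applied, since groups hold 3 arrays.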

How the results depend on the processing

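In what follows, counts are genes called, those of P3 against P2 in KO air first. The 3472 calls became 99 (44 higher, 55 lower) in a fit of only the arrays of the contrast and 1556 (656 higher, 900 lower) in one of the 12 KO air arrays. The first of these gave 0 in WT by limma (2659 at an unadjusted p under 0.05), 6 between genotypes (2 above, 4 below), 340 between oxygen and air, 0 for P2 against P1 in KO (2710 unadjusted) and 1916 for P4 against P3, and the second 178 and 1131 for the last 2. Fewer arrays leave fewer residual degrees of freedom, and the estimate of the spread then rests on those arrays alone. For P4 against P3 the fit with fewer arrays gave more calls (1916 against 1131). The cause of these shifts was not tested. With the 4 scores the counts were 501 (143 higher, 358 lower), 32 (4 and 28) between genotypes, 40 between oxygen and air, 2 for P2 against P1 and 1458 for P4 against P3. With the thymocyte score alone, chosen after seeing the data, they were 441 (121 and 320), 78 (5 and 73), 26 and 2. Without KO P2 arrays 1 and 3 they were 856 (256 and 600), 1022 in WT, 220 (21 and 199), 131 and 14, and without P3 array 2 as well 692 (202 and 490), 1000 in WT, 180 (15 and 165), 120 and 11. Of 15 arrays of the series that score over 2, 14 could be left out with 1 array kept per group, WT P2 array 1 (2.54) being the one kept. Without the 14 they were 804 (243 and 561), 785 between genotypes with 486 below, 141 and 49. Array weights gave 993 in WT, 772 above between genotypes, 3310 between oxygen and air and 4792 for P4 against P3, and cyclic loess gave 603 above between genotypes. Counting every probe set gave 5690 (2615 and 3075), 869 in WT, 2090 between genotypes with 564 above, 2525, 4127 and 4820. In these settings the cause of other shifts was not tested.

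Leaving out 1 array at a time gave 2087 to 4317 calls (1001 to 2009 higher, 1086 to 2308 lower), lowest without KO P2 array 1. It gave 77 to 650 in WT, with 77 without WT P3 array 1, 155 without P3 array 3, 250 without P3 array 2, 210 without P2 array 2 and 348 without P2 array 1. Between genotypes it gave 512 to 2351 (97 to 681 above, 415 to 1670 below), with 512 and 2351 without KO P2 arrays 1 and 2 and 746 without WT P3 array 1, and those above fell to 174, 153, 180 and 166 without WT P3 arrays 2 and 3 and KO P3 arrays 2 and 3. Between oxygen and air it gave 718 to 3122, with 718 and 3122 without KO P2 arrays 1 and 2 and 1055 without KO P3 array 3. For P2 against P1 it gave 774 to 3893, with 774 and 3893 without KO P2 arrays 1 and 2 and 1604 without KO P1 array 2, and for P4 against P3 1957 to 2707. The main fit did not pair arrays by replicate number. Deviations of same-numbered KO air arrays at P2 and P3 correlated with r of 0.166, −0.166 and −0.383 across genes. Differently numbered KO arrays gave −0.14 to 0.342. In WT air the same-numbered arrays gave 0.436, 0.688 and −0.0437, and the others −0.602 to 0.385. These few values do not settle whether the numbers pair arrays. With the number as a replicate block 3559 genes were called, 3424 of them among the 3472, and no other count moved by over 1.5 times.

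Of the values of single genes, 80 changed sign in some setting and were called in the main fit or in that setting. The cause was not tested. Sign changes without such a call, as for Mki67 (−0.7 to 0.92 over the settings), are not counted. Other probe sets gave 0.37, 0.54 and 0.56 for Srsf6, −0.12 for Rora, −0.06 for Timp2, 0.18 for Luc7l3, −0.11 for Rpgrip1, 0.06 for Stk36, 0.14 for Txn1, 0.07 for Trmt1l, 2.13 for Nfe2l2, 0.02 for Ccl25, and −0.17, −0.46, −0.67, −0.12 and −0.46 for Rprd2. The genotype difference of other probe sets was −0.33, −0.52, −0.63 and −0.47 for Rprd2, 0.20 for Nabp1, 0.49 for Trmt1l and 0.15 for Ccl25. The mean of probe sets was 0.22 for Srsf6 and 0.95 for Nfe2l2. With the 4 scores Rora was at −0.15, Nop56 at 0.06, Sh2d1a at 0.08, Ccnd3 at 0.10, P2ry10 at 0.16, Cd247 at 0.17, Nsg2 at 0.18, Cd28 at 0.18, Nkg7 at 0.31, Mcm7 at 0.33, Pcna at 0.38, Trat1 at 0.47, H2-Ab1 at 0.63, H2-Eb1 at 0.68 and Uhrf1 at 0.77. With the thymocyte score alone Rora was at −0.06, P2ry10 at 0.01, H2-DMa at 0.03, Cd247 at 0.04, Nop56 at 0.05, Sh2d1a at 0.06, Ccnd3 at 0.16, Cd28 at 0.19, Nsg2 at 0.20, Mcm7 at 0.26, Nkg7 at 0.26, Pcna at 0.28, Trat1 at 0.31, H2-Eb1 at 0.52, H2-Ab1 at 0.55 and Uhrf1 at 0.64. Without KO P2 arrays 1 and 3 Wnt2 was at −0.04, Ccnd3 at 0.07, Pcna at 0.07, Nkg7 at 0.08, H2-Ab1 at 0.17, Uhrf1 at 0.17 and H2-Eb1 at 0.18. Without P3 array 2 as well, and equally without the 14 arrays, Rora was at −0.05, Ccnd3 at 0.02, Mcm7 at 0.03, Pcna at 0.12, Nkg7 at 0.15, H2-Ab1 at 0.24, Uhrf1 at 0.25 and H2-Eb1 at 0.26. Signal over background limits dim probe sets, such as the second of Thap2. For Etv4, Iqgap3, Col4a1 and Tmem100 only 1 of 2 probe sets was called, and for Notch4 1 of 3. For Atf4 and Dleu2 2 of 3 were called, and for Wnt5a and Col12a1 2 of 4.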
